A study of Ovis aries with 32 samples.

Results

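CYR61, CTGF and TGFB3 encode secreted proteins that act on the cells and the matrix of the vessel wall. They were followed on 5 of the 15008 probes of an Agilent sheep array, 2 probes for CYR61, 2 for TGFB3 and 1 for CTGF. The CYR61 probes were named through the gene identifier and the TGFB3 probes through the gene name that the files give. The CTGF probe carries only the name of an expressed sequence tag in the files, and was named by matching the group means that the study lists for CTGF in the newborn lamb. Its name is known here because the study listed the gene as altered at that age, so that a difference in the newborn lamb is not independent of how the probe was found.

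RNA came from middle cerebral artery (MCA) segments of sheep at 4 ages. The segments were untreated or held for 30 minutes in 10 µM phenylephrine (PHE), an agonist of the alpha-1 adrenergic receptor (Alpha1AR). Each of the 8 groups had 4 arrays, 32 in all, so the number of arrays limits the precision. The series sets out to compare what Alpha1AR stimulation does to gene expression before and after birth. The sample labels give 96 days for the premature fetus, 146 days for the near-term fetus, 12 hours for the newborn lamb and 2 years for the adult sheep. The study's design text instead gives 140 days of gestation for the near-term fetus, 5 days for the newborn lamb and 18 to 24 months for the adult. No allele or other agent distinguishes the groups. The sources do not state whether untreated segments spent the same time in the bath as PHE-treated ones. They also do not state whether an untreated and a PHE-treated array with the same number came from the same animal. The whole cleaned artery was lysed, so smooth muscle, endothelium and adventitia were measured together, and p-values measure the spread between arrays.

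CYR61 (now also CCN1) and CTGF (CCN2) belong to the CCN family of matricellular proteins, which bind integrins and heparan sulfate proteoglycans and influence adhesion, migration and matrix formation. Both genes are known as rapidly induced targets of serum response factor and of the Hippo pathway's YAP and TAZ co-activators, which respond to stretch and to actin tension, and CTGF is also a target of TGF-beta signaling. TGFB3 is a ligand of the TGF-beta family, secreted in a latent form and, once released, bound by the receptors TGFBR1 and TGFBR2, which signal through SMAD proteins. In arteries these genes are best known for their part in vessel development, smooth muscle growth and collagen deposition.

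Levels are log2 intensities after background subtraction, set so that 0 is the 75th percentile of the array. A gene was called at a limma adjusted p below 0.05 (Benjamini-Hochberg, over all genes tested) and a fold of at least 1.5, from a fit to all 32 arrays. For 6889 genes that every array measured well above background, the median SD within a group was 0.43 and 0.47 (log2) in the near-term untreated and PHE groups and 0.16 to 0.28 in the others. Near-term p-values from the shared spread are therefore too small for many genes, and calls in a fit to the near-term arrays alone are given as well. All 5 probes were well above background on every array and none was saturated. Brightness was even outside the near-term fetus, where the 75th percentile was 7.56 to 19.4 times the local background. It was 1.41 to 15.4 times in the near-term untreated arrays and 4.59 to 20.1 times in the near-term PHE arrays, and the lowest 75th percentiles were those of untreated replicate 4 (124) and PHE replicate 1 (369). Untreated replicate 3 (398) followed, with a ratio to background of 4.38 against 4.59 for PHE replicate 1, and it is kept where the pair of dim arrays is left out. Near-term untreated replicate 2 and PHE replicate 4 also stood apart, with 88.4% and 95.7% of probes well above background against 59.3% to 74.4% on the other 30 arrays. The premature arrays shared 1 slide and the newborn arrays another, and these were scanned on 1 day. The near-term and adult arrays were spread over 3 slides scanned on another day, with all near-term PHE arrays and near-term untreated replicate 4 on the same slide.

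Of the 10 smooth muscle markers looked for, only CNN1, which encodes calponin, has a probe with a name. It stood at 24.2 to 521 times the array's 75th percentile and was never called changed with PHE. The summed level of the brain markers GFAP and AQP4 was at most 0.378 times the 75th percentile. The transcripts of the alpha-1 receptors themselves have no named probe here.

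CYR61 rose with PHE at both fetal ages. PHE arrays were 3.0-fold higher in the premature fetus and 12.1-fold higher in the near-term fetus, both called (8.04-fold near term without untreated replicate 4, a dim array). Adult arteries were 2.94-fold higher with PHE, close to the premature rise, and missed the threshold after adjustment. The unadjusted limma p was 0.00389 in adults and 0.00332 in the premature fetus. Newborn arteries differed by -0.30 (log2) and were not called.

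**Figure D1:**
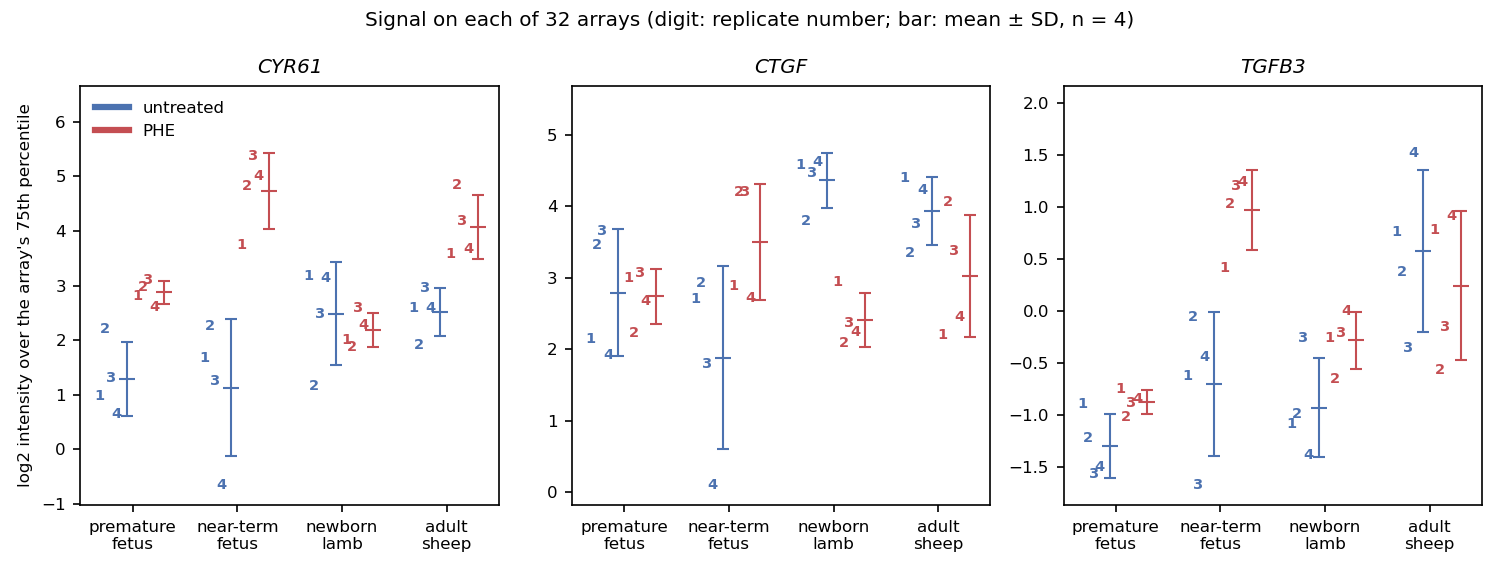
Log2 intensity of CYR61, CTGF and TGFB3 (1 probe each, the brighter where there are 2) over the 75th percentile of the array, for untreated (blue) and PHE-treated (red) arteries at 4 ages. Each digit is 1 array, named by its replicate number, and the bars give the mean and SD of 4 arrays. The CYR61 arrays with PHE stand clear of the untreated ones at every age but the newborn lamb, and the CTGF arrays with PHE lie wholly below the untreated ones in the newborn lamb.

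In the premature fetus, CYR61 stood at 0.99, 2.21, 1.32 and 0.65 on the 4 untreated arrays (log2 level). With PHE it stood at 2.82, 2.98, 3.1 and 2.61. Every PHE array was above every untreated array, and the PHE arrays lay close together (mean 2.88 ± 0.21, SD, n = 4) while untreated replicate 2 was the highest of its group. The difference was 1.59 ± 0.49 (log2, SE), 95% interval 0.58 to 2.60, with a limma adjusted p of 0.0244. PHE raised 8.4% of the 9765 genes tested at this age, and 397 of them had a larger log2 difference than CYR61. The second CYR61 probe gave 1.58 (adjusted p = 0.0257). The call was lost when untreated replicate 1 or 4, or PHE replicate 2 or 3, was left out (differences of 1.37 to 1.55, adjusted p = 0.0594 to 0.0891), and when arrays were scaled to their median (1.47, adjusted p = 0.0934). In bulk arteries, fewer cells of a type and less RNA per cell cannot be told apart.

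In the near-term fetus, CYR61 stood at 1.68, 2.25, 1.25 and -0.65 on the untreated arrays. With PHE it reached 3.74, 4.82, 5.38 and 5.00. The groups did not overlap, and the lowest array of each was also the dimmest array of that group, untreated replicate 4 and PHE replicate 1. The difference was 3.60 ± 0.49 (log2, SE), 95% interval 2.59 to 4.61, with a limma adjusted p of 7.60e-06. Only 74 of the 9544 genes tested at this age had a larger log2 rise, while 17.1% were called higher. Without those dim arrays the difference was 3.34 (adjusted p = 2.50e-06) and 23.9% of genes were called higher, an alternative chosen after seeing the data. A fit to the 8 near-term arrays alone, whose spread is wider than that of the other ages, gave an adjusted p of 0.0585 for the same difference and called 0.88% of genes. The only untreated array on the slide of the PHE arrays was the dim replicate 4, and against it alone the difference was 5.39.

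In the newborn lamb, CYR61 stood at 3.17, 1.16, 2.48 and 3.13 on the untreated arrays and at 2.01, 1.88, 2.60 and 2.28 with PHE. The groups overlapped, and 2 of the 4 pairs of arrays with the same number were higher with PHE and 2 lower. The difference of -0.30 had a 95% interval from -1.30 to 0.71 (limma adjusted p = 0.819), so that a rise as large as in the near-term fetus lies outside it. The interval does include a smaller change in either direction.

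In the adult sheep, CYR61 stood at 2.58, 1.92, 2.96 and 2.59 on the untreated arrays and at 3.57, 4.85, 4.19 and 3.68 with PHE. The groups did not overlap, and PHE replicate 2 was the highest array. The difference was 1.56 ± 0.49 (log2, SE), 95% interval 0.55 to 2.57, with a limma adjusted p of 0.0865, so that it was not called although only 197 of the 9238 genes tested had a larger rise. PHE raised 2.71% of the genes tested in the adult. With slide as a block the difference was 1.70 and was called (adjusted p = 0.0496). It was also called without near-term untreated replicate 4, an array of another age that enters only through the shared spread (1.56, adjusted p = 0.0242). Within the slide that held 2 untreated and all 4 PHE-treated adult arrays, the difference was 1.82.

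**Figure D2:**
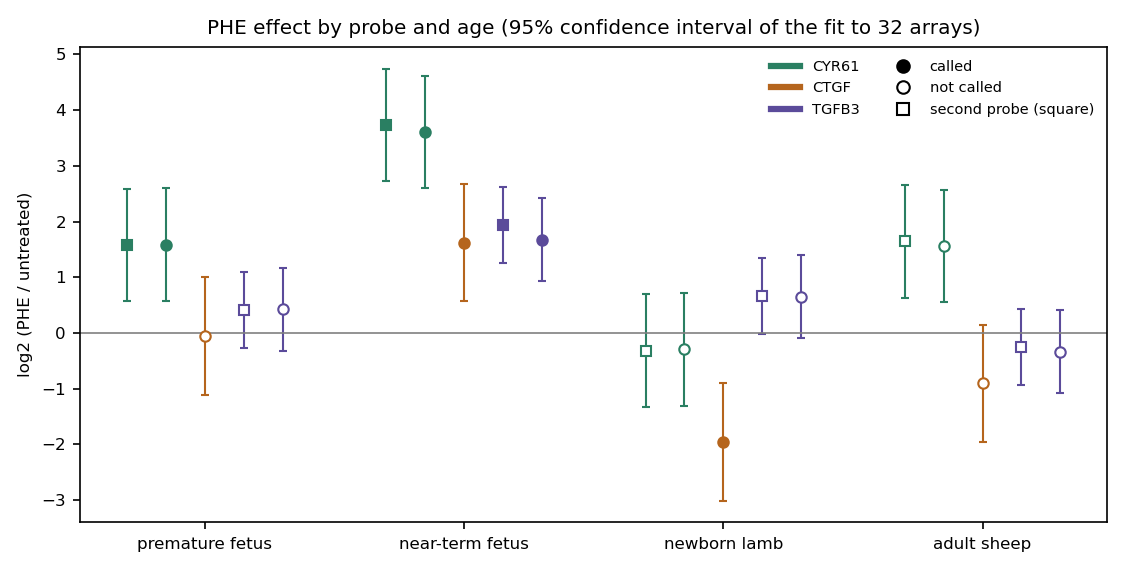
PHE effect (log2 of PHE over untreated) for each of the 5 probes at each age, with the 95% interval of the fit to 32 arrays. Filled symbols passed the threshold (adjusted p below 0.05 and 1.5-fold) and squares are the second probes of CYR61 and TGFB3. All 5 probes are filled in the near-term fetus, with CYR61 highest at 3.60 and 3.73, and CTGF in the newborn lamb is the only filled symbol below 0.

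CTGF moved in opposite directions on the 2 sides of birth. It was 3.08-fold higher with PHE in the near-term fetus and 3.88-fold lower with PHE in the newborn lamb, both called. Without near-term untreated replicate 4, a dim array, the near-term rise was 2.04-fold and was not called. The newborn fall is not independent of how the CTGF probe was named. The CTGF differences of -0.05 (log2) in the premature fetus and -0.91 in adults were not called.

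In the near-term fetus, CTGF stood at 2.70, 2.92, 1.80 and 0.10 on the untreated arrays and at 2.88, 4.21, 4.21 and 2.72 with PHE. The groups overlapped, since PHE replicates 1 and 4 were no higher than untreated replicate 2, and the dim untreated replicate 4 was far below the others. The difference was 1.62 ± 0.51 (log2, SE), 95% interval 0.56 to 2.68, with a limma adjusted p of 0.0147. It fell to 1.03 and was not called without untreated replicate 4 (adjusted p = 0.0806). It was also not called without PHE replicate 2 or 3 (1.39 for each, adjusted p = 0.0568 and 0.0586), with median scaling (1.47, adjusted p = 0.0739) or in a fit to the near-term arrays alone (adjusted p = 0.240). Against untreated replicate 4 alone, on the slide of the PHE arrays, it was 3.40.

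In the newborn lamb, CTGF stood at 4.58, 3.79, 4.47 and 4.62 on the untreated arrays, its highest group. With PHE it stood at 2.95, 2.09, 2.36 and 2.24. Every PHE array was below every untreated one, and the fall in the 4 pairs of arrays with the same number ran from -1.64 to -2.38 (log2 difference). The fitted difference was -1.96 ± 0.51 (log2, SE), 95% interval -3.01 to -0.90, with a limma adjusted p of 0.0121. Only 18 of the 9416 genes tested had a larger fall, while 5.18% were called lower. The probe owes its name to a change listed at this age, so none of these newborn values is independent of how it was found. The call held with each of the 32 arrays left out in turn (-2.15 to -1.85) and was lost only with median scaling (-1.97, adjusted p = 0.0521). Among the 8796 genes tested at both ages, 25 were called higher in the near-term fetus and lower in the newborn lamb, CTGF among them. They were 1.63% of the genes that rose in the near-term fetus and 5.15% of those that fell in the newborn lamb.

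In the premature fetus, CTGF stood at 2.15, 3.47, 3.65 and 1.92 on the untreated arrays and at 3.0, 2.23, 3.07 and 2.68 with PHE. The untreated arrays fell into a low and a high pair, with the PHE arrays between them, and the 95% interval of the difference ran from -1.11 to 1.01 (log2). In the adult sheep the untreated arrays stood at 4.40, 3.34, 3.75 and 4.22 and the PHE arrays at 2.20, 4.06, 3.37 and 2.46. PHE replicates 1 and 4 lay below every untreated array and replicates 2 and 3 among them, and the interval ran from -1.97 to 0.15 (limma adjusted p = 0.494).

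TGFB3 rose with PHE in the near-term fetus, by 3.19-fold, and was not called at another age. Its log2 differences elsewhere were 0.42 (premature), 0.65 (newborn) and -0.34 (adult). With TGFB3, all 3 genes were called higher in the near-term fetus in the fit to all arrays, where 17.1% of genes were. In the limma fit to the near-term arrays alone, which called 0.88% of genes, none of the 3 was called. Their adjusted p was 0.0585 for CYR61, 0.240 for CTGF and 0.120 for TGFB3.

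In the near-term fetus, TGFB3 stood at -0.62, -0.06, -1.68 and -0.44 on the untreated arrays and at 0.41, 1.03, 1.21 and 1.24 with PHE. The groups did not overlap, and the dim PHE replicate 1 was the lowest of the PHE arrays. The difference was 1.67 ± 0.36 (log2, SE), 95% interval 0.93 to 2.42, with a limma adjusted p of 8.61e-04. The second probe gave 1.94 (adjusted p = 9.45e-05), and 2.06 against untreated replicate 4 alone, on the slide of the PHE arrays. The call held with each array left out in turn (1.35 to 1.89). It was lost with slide as a block, which compares the PHE arrays with untreated replicate 4 alone (1.42, adjusted p = 0.0723), and in a fit to the near-term arrays alone (adjusted p = 0.120).

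In the premature fetus, TGFB3 stood at -0.90, -1.22, -1.57 and -1.5 on the untreated arrays and at -0.75, -1.02, -0.88 and -0.85 with PHE. In the newborn lamb it stood at -1.09, -0.99, -0.26 and -1.38 on the untreated arrays and at -0.26, -0.66, -0.21 and 0.00 with PHE. At both ages all 4 pairs of arrays with the same number were higher with PHE, but the groups overlapped and neither difference was called (limma adjusted p = 0.472 and 0.297). In the adult sheep the untreated arrays stood at 0.76, 0.38, -0.35 and 1.53 and the PHE arrays at 0.78, -0.56, -0.15 and 0.91. These arrays spread widely in both groups, and the 95% interval of the difference ran from -1.08 to 0.41.

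The difference between ages was tested directly as an interaction. For CYR61 the PHE effect in the newborn lamb was 3.90 (log2) below that in the near-term fetus, an interaction of -3.90 ± 0.69 (SE) with a limma adjusted p of 0.00156. For CTGF the same interaction was -3.58 ± 0.73 with an adjusted p of 0.00320. Both were called under every alternative tried for them and with each array left out in turn, while 6.99% of genes were called lower in this interaction. Their sizes moved, to -5.68 and -5.36 with slide as a block and to -3.30 and -2.99 without near-term untreated replicate 4. Near-term untreated replicates 1, 2 and 3 lay on other slides than the near-term PHE arrays. PHE and slide therefore cannot be fully told apart near term, and newborn arrays were scanned on another day. Slide as a block rests near term on untreated replicate 4 alone. The newborn fall within the CTGF interaction is not independent of how its probe was named. For TGFB3 the same interaction was -1.02 ± 0.51 and was not called (adjusted p = 0.204). The PHE effect in the adult sheep was lower than in the near-term fetus for CTGF (-2.53, adjusted p = 0.0291) and TGFB3 (-2.01, adjusted p = 0.0161), in an interaction where 6.09% of genes were called lower. Both were lost in a fit to the near-term and adult arrays alone (adjusted p = 0.243 and 0.227), that of CTGF also with median scaling (-2.46, adjusted p = 0.111) and that of TGFB3 also with slide as a block (-1.70, adjusted p = 0.132). The CTGF call was further lost without any 1 of 8 arrays, which were adult untreated replicates 1, 3 and 4, adult PHE replicates 1 and 4, near-term untreated replicate 3 and near-term PHE replicates 2 and 3 (adjusted p = 0.0501 to 0.0726). For CYR61 this interaction was -2.05 with an adjusted p of 0.0573. It was called when any 1 of 6 arrays was left out, namely replicate 2 of newborn untreated, adult untreated or adult PHE, near-term untreated replicate 1 or 2, or near-term PHE replicate 1 (adjusted p = 0.0154 to 0.0481). It was also called with quantile normalization (-2.22), normexp (-2.34), slide as a block (-3.69, adjusted p = 0.00720) and without both dim near-term arrays (-1.78). With slide as a block that of CTGF was -4.21 (adjusted p = 0.00486).

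The 2 fetal ages did not differ beyond the threshold in the fit to all arrays. The PHE effect in the near-term fetus exceeded that in the premature fetus by 2.02 for CYR61 (limma adjusted p = 0.0942), 1.67 for CTGF (adjusted p = 0.183) and 1.25 for TGFB3 (adjusted p = 0.158), against 2.4% of genes called higher in that interaction. The CTGF value fell to 1.08 without near-term untreated replicate 4 (adjusted p = 0.312). The CYR61 interaction was called without near-term untreated replicate 2 (2.39, adjusted p = 0.0304) or PHE replicate 1 (2.35, adjusted p = 0.0276). It was also called without both dim near-term arrays (1.75, adjusted p = 0.0392). The share of all genes called higher was 6.79% without PHE replicate 1 and 9.34% without both dim arrays. With slide as a block, where untreated replicate 4 alone stands against the near-term PHE arrays, the interactions of CYR61 and CTGF were 3.8 and 3.45 and were called (adjusted p = 0.00414 and 0.0121). Between newborn lamb and premature fetus the interactions were -1.88 for CYR61, -1.91 for CTGF and 0.23 for TGFB3, with 95% intervals of -3.31 to -0.45, -3.40 to -0.41 and -0.83 to 1.28. Between adult sheep and newborn lamb they were 1.85, 1.05 and -0.99, with intervals of 0.42 to 3.28, -0.45 to 2.54 and -2.04 to 0.07. None of these 6 was called by limma after adjustment over all genes, where 0.0101% and 0.1% of genes were. The unadjusted limma p was 0.0117 for CYR61 and 0.0144 for CTGF between newborn lamb and premature fetus, and 0.0130 for CYR61 between adult sheep and newborn lamb.

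**Figure D3:**
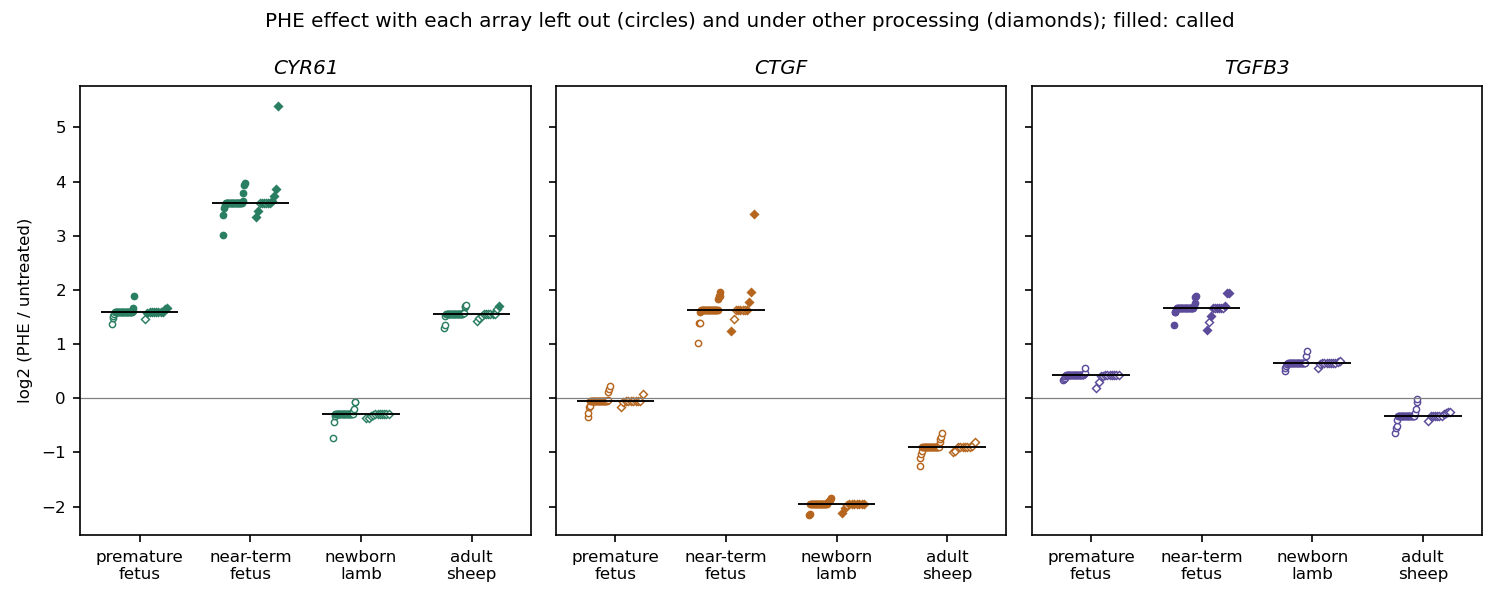
PHE effect of each gene at each age (log2 of PHE over untreated), with each of 32 arrays left out in turn (circles) and under the other processing alternatives (diamonds). The black line is the reported value and filled symbols passed the threshold. The newborn fall of CTGF and the near-term rise of CYR61 keep their direction throughout, and the values far above the near-term line of CYR61 and CTGF (5.39 and 3.40) are those with slide as a block.

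In untreated arteries, all 3 genes were higher in the adult sheep than in the near-term fetus, among the 20.9% of genes called higher in that comparison. The difference was 2.05 ± 0.51 for CTGF (limma adjusted p = 0.00204), 1.38 ± 0.49 for CYR61 (adjusted p = 0.0229) and 1.28 ± 0.36 for TGFB3 (adjusted p = 0.00548), all log2 with SE. The 4 adult arrays of CTGF lay above all near-term ones, and the groups overlapped for CYR61 and TGFB3. Without the dim near-term untreated replicate 4 the difference of CYR61 fell to 0.79 and was not called (adjusted p = 0.151), nor was it with slide as a block (0.74, adjusted p = 0.193) or without adult untreated replicate 3 (1.23, adjusted p = 0.0655). That of CTGF was 1.45 without near-term untreated replicate 4 and was still called (adjusted p = 0.0151). In a fit to the untreated adult and near-term arrays alone, the adjusted p was 0.134 for CYR61, 0.0966 for TGFB3 and 0.0486 for CTGF. On the slide that held 2 adult and 1 near-term untreated array the differences were 1.28 for CTGF, 1.1 for CYR61 and 1.21 for TGFB3. On the slide that held 2 of each they were 1.51, 0.50 and 1.44.

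CTGF was also higher in the untreated newborn lamb than in the untreated premature fetus, by 1.57 ± 0.51 (log2, SE) with a limma adjusted p of 0.0464, while 5.76% of genes were called higher. All 4 newborn arrays were above the premature ones, but the call was lost in 16 of the 32 fits with 1 array left out, with values of 1.28 to 1.57 and adjusted p of 0.0508 to 0.170 in those fits. These arrays were newborn untreated replicates 1, 3 and 4, premature untreated replicates 1 and 4, all PHE arrays of both ages, adult untreated replicates 1 and 4 and adult PHE replicate 3. CYR61 differed by 1.20 (adjusted p = 0.122) and TGFB3 by 0.36 (adjusted p = 0.610), neither called. That of CYR61 was called without newborn untreated replicate 2, its low array (1.64, adjusted p = 0.0336). These ages lay on separate slides, so that age and slide cannot be told apart. Markers also differed without overlap, CNN1 standing at 30.6 to 38.0 times the 75th percentile in the premature and 104 to 172 times in the newborn untreated arrays, the endothelial sum at 0.651 to 0.791 and 0.230 to 0.332 times, and the fibroblast sum at 96.2 to 105 and 21.9 to 60.2 times. Their part in the CTGF difference was not tested.

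Ordered by mean level over the 8 groups, CYR61 ran from the near-term untreated group (1.13 ± 1.26) to the near-term PHE group (4.73 ± 0.70). Neighbours in that order overlapped everywhere but between the PHE-treated premature fetus (2.88) and the PHE-treated adult sheep (4.07). CTGF ran from the near-term untreated group (1.88 ± 1.28) to the untreated newborn lamb (4.37 ± 0.39), and TGFB3 from the untreated premature fetus (-1.30 ± 0.31) to the near-term PHE group (0.97 ± 0.38). For these genes all neighbouring groups overlapped. Premature and newborn levels, scanned on 1 day, and near-term and adult levels, scanned on another, are given side by side only.

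Both probes of a gene gave like levels. Over 32 arrays the CYR61 probes correlated at r = 0.999 and differed by at most 0.18 (log2) on an array. The TGFB3 probes correlated at r = 0.979 and differed by up to 0.73 on the dim near-term untreated replicate 4, but by at most 0.20 at the other ages.

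Of 173 genes on the lists of CCN receptors, TGF-beta signaling, Hippo pathway and serum response factor genes, the 3 genes included, 74 had a named probe. Many of these names, like that of CTGF, come from the study's own lists of altered genes and so favour genes that moved. PHE raised 19 and lowered 1 of the 66 tested in the premature fetus (30.3%, against 16.9% of all genes tested), and raised 33 and lowered 5 of 64 in the near-term fetus (59.4%, against 35.4%). It raised 11 and lowered 2 of 64 in the newborn lamb (20.3%, against 10.5%) and raised 10 of 65 in the adult sheep (15.4%, against 3.51%). Among genes named independently of those lists the shares called were 23.7%, 37.8%, 16.7% and 10.3%, and the median log2 differences 0.45, 0.35, 0.24 and 0.22. In a fit to the near-term arrays alone, which called 0.88% of all genes, 7 of the list genes were called, all higher (SDC4, BAMBI, ELN, GADD45A, EGR1, FOS and JUNB). The near-term calls of all other list genes named here rest on the spread shared over the ages. With all names included, the median log2 difference over these lists was 0.50, 1.15, 0.39 and 0.27 from the premature fetus to the adult sheep, and over all genes tested -0.09, -0.09, -0.08 and -0.05.

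Ligands of the TGF-beta family and the proteins that store or release them were called higher for 6 of 12 tested in the near-term fetus and lower for none, where 17.1% of all genes were called higher. Of those named independently of the study's lists, 3 of 8 were called there. Besides TGFB3, the ligand TGFB2 rose by 1.5 (limma adjusted p = 0.00342), LTBP2, a latent TGF-beta binding protein family member, by 1.47 (adjusted p = 4.93e-05) and MMP2, a matrix protease, by 2.19 (adjusted p = 0.00102), all log2. In the fit to the near-term arrays alone their adjusted p was 0.119, 0.120 and 0.119. At each other age 1 of 13 was called higher, BMP2 in the premature fetus (1.36) and newborn lamb (1.83) and THBS2 in adults (1.13). The share of all genes called higher was 8.4%, 5.36% and 2.71% at these ages. TGFB1, the best known ligand, differed by 0.18 to 0.47 at the 4 ages and was not called.

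Receptors moved both ways. In the near-term fetus 2 of 8 were higher and 3 lower, where 17.1% of all genes were higher and 18.3% lower, and none of these 5 was called in the fit to the near-term arrays alone. TGFBR2, which binds the ligand, rose by 0.93 there and by 0.78 in the premature fetus, while TGFBR1, its signaling partner, fell by 0.95 in the near-term fetus (limma adjusted p = 2.93e-04, and 0.193 from the near-term arrays alone). The co-receptor ENG rose by 1.74 in the near-term fetus, and the BMP receptor BMPR2 fell by 0.97 and 1.02 in the premature and near-term fetus and by 0.66 in newborn lambs.

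Among the SMADs and inhibitors of the pathway, PHE raised 5 of 14 genes tested in the premature fetus, 6 of 13 near term, 3 of 12 in newborn lambs and 2 of 13 in adults, and lowered none (8.4%, 17.1%, 5.36% and 2.71% of all genes were higher at these ages). Members named independently of the study's lists gave 2 of 10, 2 of 9, 2 of 8 and 1 of 9. BAMBI, a decoy receptor that limits TGF-beta signaling, rose by 3.41, 3.70, 2.04 and 2.94 from the premature fetus to the adult sheep (log2, called at each age). TGIF1, a repressor of SMAD-driven transcription, rose by 2.22, 1.95, 2.31 and 2.95. SMAD7, an inhibitory SMAD, rose by 2.06 in the premature fetus and 2.86 in newborn lambs and was not called near term (0.12) or in adults (-0.69). SKI, another repressor, rose by 1.16 and 1.28 in the premature and near-term fetus.

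Matrix genes that TGF-beta is known to induce rose in the near-term fetus, 8 of 10 tested, with 3 of 10 higher in the premature fetus, 2 of 10 in newborn lambs and none of 9 in adults, against 17.1%, 8.4%, 5.36% and 2.71% of all genes. PLAUR, the urokinase receptor and also on this list, was not called near term (1.47, limma adjusted p = 0.198). Its values of 4.70 in the premature fetus and 4.37 in newborn lambs exceeded every near-term value of the list. The collagen genes COL3A1, COL1A1 and COL1A2 rose by 3.74, 4.22 and 4.23 in the near-term fetus and the elastin gene ELN by 3.67 (log2). From the near-term arrays alone the adjusted p was 0.0812, 0.0959 and 0.0838 for the collagen genes and 0.0384 for ELN. In the adult sheep their differences were 0.38, 0.45, 0.73 and 0.02, none called. All but 3 of the 11 matrix genes with a named probe owe their name to the study's lists, and of the others tested 1 of 2 was called near term.

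**Figure D4:**
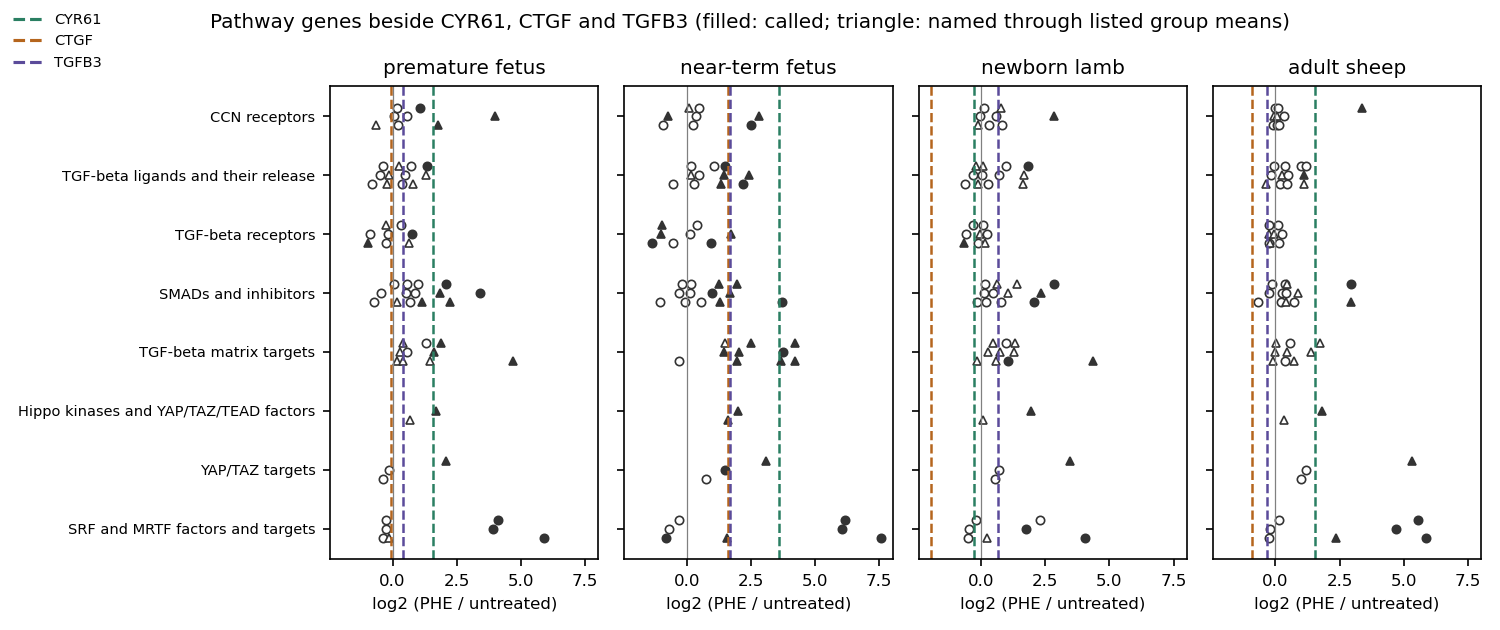
PHE effect (log2 of PHE over untreated) of the tested genes of each pathway list at each age, with the values of CYR61, CTGF and TGFB3 as dashed lines. Filled symbols passed the threshold, and triangles are genes named through the study's listed group means. In the near-term fetus 8 of the 10 matrix genes are filled, at 1.46 to 4.23, while the immediate early genes of the serum response factor list lie further right, up to 7.55.

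Of the genes that bind or cooperate with CCN proteins, 8 were tested at each age before adulthood and 9 in the adult sheep. The proteoglycan SDC4 rose at all 4 ages, by 4.0, 2.81, 2.83 and 3.39, and FGFR1, a growth factor receptor, rose by 1.07 in the premature and 2.50 in the near-term fetus. FGFR2 rose by 1.77 in the premature fetus, and IGF2R fell by 0.73 in the near-term fetus (limma adjusted p = 0.0332, and 0.384 from the near-term arrays alone). The integrin subunits ITGAV, ITGB1, ITGB2 and ITGB5 were tested at all 4 ages and not called, with differences between -0.91 and 0.56.

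Of the Hippo pathway only SAV1, a scaffold of the kinase cascade, and VGLL4, a competitor of YAP for TEAD factors, had a named probe. Both names, and those of GADD45A and FLNA below, come from the study's lists of altered genes. SAV1 rose by 1.67, 1.60, 1.94 and 1.80 from the premature fetus to the adult sheep, and VGLL4 by 2.01 in the near-term fetus, the only age at which it was called. Besides CYR61, CTGF and TGFB2, the YAP and TAZ target list held GADD45A, a DNA damage response gene, which rose at each age (2.09, 3.09, 3.46 and 5.33), and IGFBP3, which was not called. Of the 7 genes of the serum response factor list, 3, 4, 2 and 4 were called higher from the premature fetus to the adult sheep, against 8.4%, 17.1%, 5.36% and 2.71% of all genes. The actin gene ACTG1 fell by 0.81 near term (limma adjusted p = 0.00185, and 0.225 from the near-term arrays alone), and ACTB, another actin gene, and CNN1 were not called. The immediate early genes JUNB and EGR1 rose at all 4 ages, by 4.03 to 6.04 and by 1.76 to 6.15. FOS rose by 4.12, 7.55 and 5.85 at the other ages, and its newborn difference of 2.29 was not called (limma adjusted p = 0.0676). FLNA, which encodes an actin crosslinking protein, rose by 1.57 near term and 2.37 in adults.

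Markers of other cell types moved alongside the near-term result. The summed level of 5 of 8 fibroblast and adventitia markers was 21.6 to 87.3 times the 75th percentile on untreated and 61.5 to 166 times on PHE arrays of the near-term fetus, with 4 of 5 called higher, where 17.1% of all genes were. That of 3 of 9 endothelial markers was 0.169 to 0.684 times and 0.615 to 1.37 times, with 2 of 3 called higher, and that of the hemoglobin genes HBB and HBA1 was 12.8 to 23.2 times and 1.53 to 7.67 times. The near-term sum of 6 of 9 leukocyte markers was 2.52 to 5.66 times untreated and 0.918 to 3.03 times with PHE, with 1 of 4 tested called higher (CD68). None of these near-term fibroblast, endothelial and leukocyte calls held in the fit to the near-term arrays alone (limma adjusted p = 0.0812 to 0.234). The fibroblast marker DCN was not called and differed by -0.31. Of the fibroblast markers named independently of the study's lists, 2 of 3 were called higher near term. The fibroblast list shares COL1A1, COL1A2 and COL3A1 with the matrix genes above. In the newborn lamb the fibroblast sum was 21.9 to 60.2 times untreated and 60.8 to 71.7 times with PHE, with none of 5 called, where 10.5% of all genes were. The newborn sum of 6 of 9 leukocyte markers was 1.06 to 5.82 times and 4.16 to 6.82 times. There 1 of 3 leukocyte markers tested was called higher (CD68, 1.45), against 5.36% of all genes. The newborn hemoglobin sum was 23.9 to 38.4 times untreated and 12.9 to 17.0 times with PHE, without overlap. In the premature fetus the fibroblast sum was 96.2 to 105 times untreated and 88.0 to 111 times with PHE. There 1 of 5 was called higher (COL1A2, 1.89), where 8.4% of all genes were. The premature hemoglobin sum was 28.3 to 51.7 times untreated and 11.0 to 12.6 times with PHE. The premature leukocyte sum was 2.16 to 2.51 times untreated and 3.32 to 5.86 times with PHE, also without overlap. In the untreated adult sheep the fibroblast sum was 7.36 to 19.2 times, below that of every untreated near-term array. With PHE none of 5 adult fibroblast markers was called, where 3.51% of all genes were. Of the leukocyte markers 1 of 3 tested was called higher with PHE in adults (CD68, 1.24), against 2.71% of all genes. The leukocyte marker ITGAM was not well above background on any premature, newborn or PHE-treated adult array. The part of these markers in the results of CYR61, CTGF and TGFB3 was not tested.

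The genes whose pattern was most like each of these were sought among 2032 other named genes, by Pearson's r of log2 levels over the 32 arrays, which share slides, scan days and the dim near-term arrays. Nearest to CYR61 were DUSP1, a phosphatase of MAP kinases (r = 0.875), ZFP36, an mRNA decay factor (r = 0.833), and TMEM127 (r = 0.827). DUSP1 showed PHE differences of 2.11, 3.34, -0.17 and 2.07 (log2) from the premature fetus to the adult sheep, beside 1.59, 3.60, -0.30 and 1.56 for CYR61. Nearest to CTGF were ZC3H10 (r = 0.705), FIBIN (r = 0.660) and COX15 (r = 0.622), so that no gene followed CTGF as closely as DUSP1 followed CYR61. Nearest to TGFB3 were ATP6AP1 (r = 0.850), SEPT9 (r = 0.838) and ACAS2 (r = 0.833). Among themselves the 3 genes were less alike, at r = 0.513 for CYR61 and CTGF, 0.550 for CYR61 and TGFB3 and 0.177 for CTGF and TGFB3.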

How the data were processed

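Each of 32 Agilent sheep arrays carried RNA of 1 sample in 1 dye. The deposited intensities are those of Feature Extraction 9.5.3.1, background-subtracted per array by the authors and not normalized across arrays. The matrix of the series holds the same intensities, and no column of values was left unmatched to an array.

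Of 15744 spots, 536 controls and spots marked as outliers were left out and the spots of a probe were averaged. Intensities were divided by the 75th percentile of their array and then log2 transformed. limma 3.58.1 (R 4.3.3) fitted 8 group means with one spread per probe, and p-values were adjusted over genes tested (well above background on all 4 arrays of a group compared). Each gene was represented by its brightest probe, which left 14278 genes and unnamed probes. The fit was tested on simulated data drawn with the spread of each group, where it called unchanged genes more often near term than at the other ages. Python 3.11.15 drew the figures.

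Probes were named by accession, gene identifier, gene name or description in the files, and otherwise by matching the means in the study's lists of altered genes to the arrays after fitting a scale to each array. The near-term means matched without PHE replicate 1. Exactly 1 probe matched 613 of the 1269 listed premature genes, 1053 of 1106 near-term, 967 of 1016 newborn and 403 of 438 adult genes. Of 145 probes also named otherwise, 113 had the same name.

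The genes named are the 3 genes, up to 4 from each list by smallest adjusted p and ligands, receptors or SMADs needed for a sentence, and the 3 named genes closest to each in correlation. For the integrins, the actin genes, PLAUR and the marker genes the choice was made after their values were seen. The 3 genes, lists and tests were chosen with earlier results of these data known. Same-numbered untreated and PHE arrays deviated together from their group means in all premature (r = 0.359 to 0.548) and all newborn pairs (r = 0.496 to 0.596). This did not hold for all pairs near term (-0.19 to 0.33) or in adults (-0.10 to 0.03). Whether same-numbered arrays share an animal is not stated, and the fit to all arrays did not pair them. Alternatives were median scaling, quantile normalization, normexp background correction (offset 50), no filter on dim probes, the deposited matrix, only the arrays compared, replicate or slide as a block, the methods' t-test without and with adjustment, the other probe of a gene, and each array left out. Leaving out near-term untreated replicate 4 together with PHE replicate 1, and values within 1 slide, were added after the data had been seen.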

Additional observations from a re-analysis of the deposited data

Results flagged for a closer look

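The PHE effect differed between ages by the interaction test in 4 cases. CYR61 had an effect in the newborn lamb that was -3.90 (log2) relative to the near-term fetus, and CTGF one that was -3.58. The CTGF probe was named through its newborn means, so that its value here is not independent of how it was found. Relative to the near-term fetus the effect in the adult sheep was -2.53 for CTGF and -2.01 for TGFB3. No array of the 5 probes stood apart from the other 3 of its group by Dixon's ratio, in 40 groups of 4 tested, where chance gives about 1 in 20.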

How the results depend on the processing

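The tests pooled the spread of all 32 arrays. With only the arrays compared, calls were lost for the near-term PHE effect of CYR61 (3.60, adjusted p = 0.0585), CTGF (1.62, 0.240) and TGFB3 (1.67, 0.120), for the effect in adult sheep relative to near term of CTGF (-2.53, 0.243) and TGFB3 (-2.01, 0.227), and for the untreated adult difference from near term of CYR61 (1.38, 0.134) and TGFB3 (1.28, 0.0966). The methods' t-test after Benjamini-Hochberg adjustment lost the same near-term effects (3.60, 1.62 and 1.67, adjusted p = 0.145, 0.288 and 0.162), the untreated adult differences (CYR61 1.38, CTGF 2.05, TGFB3 1.28, adjusted p = 0.230, 0.129 and 0.142) and the untreated newborn difference of CTGF (1.57, 0.0939). At its unadjusted threshold that test gained the adult effect of CYR61 (1.56) and lost the near-term effect of CTGF (1.62) and the untreated adult differences of CYR61 (1.38) and TGFB3 (1.28). Median scaling lost the premature effect of CYR61 (1.47), the near-term (1.47), newborn (-1.97) and adult relative to near-term (-2.46) effects of CTGF and its untreated newborn difference (1.53), which was also lost with no filter on dim probes (1.57, where more genes are tested).

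Slide as a block lost the near-term effect of TGFB3 (1.42), its adult effect relative to near term (-1.70) and the untreated adult difference of CYR61 (0.74). It gained the adult effect of CYR61 (1.70), its effects near term relative to premature (3.8) and adult relative to near term (-3.69), and that of CTGF near term relative to premature (3.45). Quantile normalization and normexp gained the adult effect of CYR61 relative to near term (-2.22 and -2.34), and normexp turned the premature difference of CTGF to 0.086, uncalled both ways. Without near-term untreated replicate 4 and PHE replicate 1, CYR61 gained the near-term relative to premature (1.75) and adult relative to near-term (-1.78) effects and lost its untreated adult difference (0.79). In that fit 9.34% of all genes were called higher near term relative to premature, and 14.4% lower in adults relative to near term. The cause of these changes was not tested. Calls over the pathway lists (20, 38, 13 and 10 genes by age) became 33, 7 and 20 in the premature, near-term and newborn fits with only the arrays compared (which called 28.8%, 0.88% and 18.4% of all genes), 32 and 21 for premature and newborn with the unadjusted t-test (28.4% and 19.2% of all genes), and 2 near term and 0 in adults with the adjusted one (0.126% and 0.0974%).

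With each array left out in turn, PHE effects of CYR61 ranged from 1.37 to 1.89 (premature), 3.01 to 3.98 (near term) and 1.30 to 1.72 (adult), its near-term effect relative to premature from 1.42 to 2.39, its adult effect relative to near term from -2.42 to -1.45, and its untreated newborn and adult differences from 0.97 to 1.64 and 0.79 to 1.76. Those of CTGF ranged from -0.34 to 0.23 (premature, above 0 without untreated replicate 2 or 3 or PHE replicate 2, at 0.17, 0.23 and 0.12), 1.03 to 1.97 (near term), 1.08 to 2.02 (near term relative to premature), -2.88 to -1.94 (adult relative to near term) and 1.28 to 1.86 (untreated newborn). Uncalled values also moved, the newborn effect of CYR61 from -0.74 to -0.07, the adult effect of TGFB3 from -0.65 to -0.02 and its untreated newborn difference from 0.14 to 0.51.

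With the replicate block, which pairs arrays by number, the premature effect of CYR61 was 1.59 (adjusted p = 0.0362) and the newborn effect of CTGF -1.96 (adjusted p = 0.0149). It was run for the PHE effects and their differences between ages, where it changed no call of the 3 genes, and the pathway lists gave 19, 38, 16 and 11 calls, where 18.6%, 37.8%, 11.6% and 4.25% of all genes were called. Signal over background was lowest in near-term untreated replicate 4, at 1.41 times.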
